A study of Mus musculus with 24 samples.

Results

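The nuclear-encoded genes of the respiratory chain were followed through the dorsal hippocampus of 24 mice. Members were taken by symbol from the deposited expression table: names that begin with Nduf followed by a, b, c, s or v and a digit, the 4 genes Sdha to Sdhd, and names that begin with Uqcr, Atp5 or Cox4 to Cox8. This rule uses no measured value and found 85 of 19661 genes. By the textbook role of each symbol, 35 belong to complex I, 4 to complex II, 8 to complex III, 20 to complex IV and 16 to complex V. The other 2, Cox4nb and Atp5sl, carry such names without being subunits and are set apart. Cox7a2l, a supercomplex factor, and Atp5s, a coupling factor, are counted with complexes IV and V. The respiratory chain sits in the inner mitochondrial membrane. Complexes I and II take electrons from NADH and succinate, complex III passes them to cytochrome c, complex IV hands them to oxygen, and complex V makes ATP from the proton gradient that the pumping complexes build. Neurons draw most of their ATP from this pathway, and several complex IV subunits exist as paired genes, one active in most tissues and one in muscle, lung, testis or another special site.

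RNA was taken from both dorsal hippocampi of each mouse, 1 library per animal, with 6 animals in each of 4 groups. Wild-type C57BL/6J mice and Baf53b+/- mice, whose background is labelled B6J.129S6-Actl6b<tm1Grc>, stayed in the home cage or were trained in Object Location Memory and killed 30 minutes later. In this task mice explore objects at set places. Actl6b encodes BAF53b, a subunit of the neuronal BAF chromatin remodelling complex. The strain labels differ between the genotypes, so genotype and background cannot be told apart. The sources used here give no ages. Actl6b lay between 46.4 and 54.4 RPKM in the 12 wild-type animals and between 27.3 and 32.4 in the 12 heterozygotes. The sources used here do not say which part of the gene the allele removes. RPKM is the number of reads scaled to gene length and to the read total. Depth read back from the low values ran up from 28.4 to 47.0 M reads (median 34.5 M). All 9 hippocampal neuron markers of a fixed list were detected, with a summed level of 2990 to 3700 RPKM. Summed markers of choroid plexus, the epithelium that lines part of the ventricles, ran from 16.2 to 4800 RPKM, and 6 libraries were rich in them: animals 2425 (wild type, home cage), 2412 (wild type, trained), 2422 and 2424 (Baf53b+/-, home cage), and 2409 and 2429 (Baf53b+/-, trained). The labels do not give sex, and the Y-linked gene Ddx3y was detected in 3, 3, 5 and 3 animals of the wild-type home cage, wild-type trained, Baf53b+/- home cage and Baf53b+/- trained groups. In bulk RNA, fewer cells of a type and less RNA per cell cannot be told apart.

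The 85 members made up a steady share of the transcriptome. Their RPKM summed to between 6540 and 7495 per animal, or 2.29% to 2.56% of the table. The share was 2.39% ± 0.0613 (SD, n = 6) for wild-type mice in the home cage and 2.43% ± 0.0658 for those that were trained. In Baf53b+/- mice it was 2.43% ± 0.102 in the home cage and 2.44% ± 0.0579 after training. These shares overlapped in all 4 groups. Of the members, 79 reached a mean of 1 RPKM over the 24 animals and were tested, and 6 did not: Ndufs5, Cox4i2, Cox7b2, Cox8b, Cox8c and Atp5g2. Among the tested members the median coefficient of variation within groups was 5.59%, beside 6.91% over all 12399 tested genes, which had a lower median level (9.32 against 63.6 RPKM).

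Complex I, the NADH dehydrogenase, had a median member level of 54.7 RPKM over the 24 animals. Its highest members were the accessory subunits Ndufb9 at 149 ± 7.99 RPKM (SD over 24 animals), Ndufb10 at 130 ± 6.99 and Ndufb8 at 103 ± 4.98. Of the catalytic core, members were expressed at 63.5 RPKM for Ndufv2, 59.2 for Ndufv1, 54.7 for Ndufs7, 44.4 for Ndufs1, 42.2 for Ndufs8 and 29.6 for Ndufs3. Genes for subunits that occur once per complex were thus spread over a range of RPKM. The lowest members were Ndufb4 at 2.59 RPKM and Ndufs5 at 0.472, both far below the third lowest, Ndufa11, at 14.1. Of the X-linked members, Ndufa1 stood at 56.6 ± 7.63 RPKM, Ndufb11 at 71.9 ± 3.19 and the complex IV subunit Cox7b at 61.0 ± 3.18. Complex II, the succinate dehydrogenase that also serves the citric acid cycle, had higher levels in its catalytic pair than in its membrane anchors. Sdha, the flavoprotein, stood at 124 ± 3.90 RPKM and the iron-sulfur subunit Sdhb at 76.9 ± 2.57, while the anchors Sdhc and Sdhd stood at 45.4 ± 2.89 and 34.5 ± 1.23. The ranges over animals of these 4 genes did not overlap between the catalytic pair and the anchors.

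Complex III, the cytochrome bc1 complex, had a median of 93.9 RPKM and the narrowest range apart from complex II. Uqcrh, the hinge protein, was highest at 143 ± 8.78 RPKM, followed by the core proteins Uqcrc1 at 109 and Uqcrc2 at 108. The Rieske iron-sulfur protein Uqcrfs1 stood at 46.4 ± 1.55 and Uqcrb at 25.0 ± 2.12. Complex IV, cytochrome c oxidase, held the widest range. Cox8a stood at 443 ± 17.9 RPKM, Cox6a1 at 376 ± 78.1 and Cox4i1 at 342 ± 16.3, whereas Cox8c was at 0 in 23 of the 24 animals and at 0.0565 RPKM in the other. Its median was 53.5 RPKM over 20 members and 88.8 over the 16 tested. Complex V, the ATP synthase, was led by the F1 head subunits Atp5b at 491 ± 18.3 RPKM, the catalytic β subunit, Atp5a1 at 307 ± 7.77 and Atp5d at 174 ± 10.1. Its lowest members were Atp5l at 4.74 ± 0.722 and Atp5g2 at 0.348 ± 0.0878. Small relative spreads within groups belonged to Atp5a1 (2.26%), Atp5c1 (2.66%), Atp5f1 (2.77%) and Uqcrfs1 (3.07%). The widest were those of Cox8c (490%), Ndufs5 (133%), Cox8b (121%), Cox6b2 (49.6%) and Cox7b2 (36.8%), all at low levels. The names that are not subunits, Atp5sl and Cox4nb, stood at 14.03 and 13.02 RPKM.

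**Figure D1:**
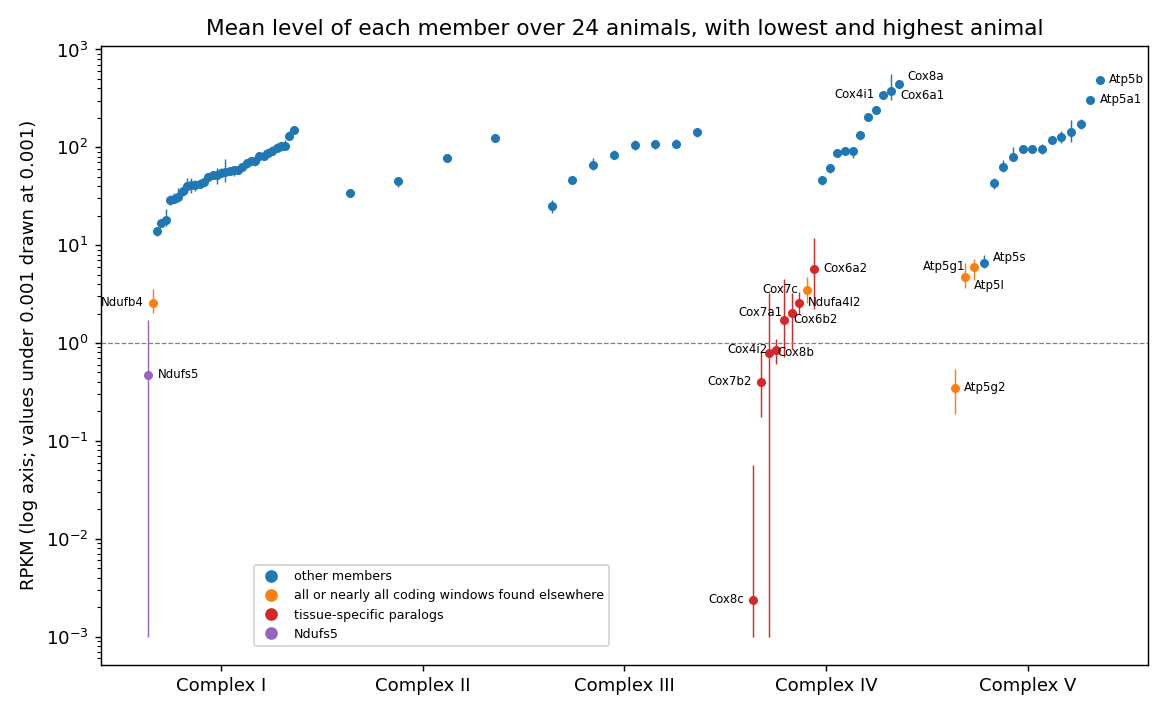
Mean RPKM of each member of complexes I to V over 24 animals on a log axis. Bars run from the lowest to the highest animal, and a dashed line marks 1 RPKM. Most members lie between 10 and 500 RPKM, and the tissue-specific paralogs of complex IV, Ndufs5 and 6 other common members lie below them.

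Several subunits that every cell needs had very low values, and for most of these the coding sequence was shared with other genes. Each member's transcript was read in GENCODE vM21 (GRCm38) and cut into all windows of 50 bases, the read length, and each window was looked up in the transcripts of all other genes. Of the 84 members matched, 51 had no coding window with an exact copy elsewhere, and 5 had a copy for over 99% of their coding windows. These 5 were Atp5l, Atp5g2, Ndufb4 and Cox7c, each at 100%, and Atp5g1 at 99.7%. Over all windows of the transcript, coding or not, the 5 genes had smaller shares with an exact copy elsewhere. These shares were 68.7% for Atp5l, 87.4% for Atp5g2, 37.0% for Ndufb4, 53.2% for Cox7c and 11.6% for Atp5g1. The levels of the 5 genes were 4.74 ± 0.722 RPKM (SD over 24 animals) for Atp5l, 0.348 ± 0.0878 for Atp5g2, 2.59 ± 0.422 for Ndufb4, 3.44 ± 0.595 for Cox7c and 5.96 ± 0.648 for Atp5g1. The other 69 common members had a median of 73.2 RPKM, and 2 of them, Ndufs5 and Atp5s, lay under 7 RPKM. All 8 tissue-specific paralogs had 0% of their coding windows elsewhere, so their low levels did not go with shared sequence. The coding window with the most copies is shown for each of the 5, since these stretches cannot be placed by sequence alone, and the first window of Atp5g3 is shown as a contrast.
Atp5l: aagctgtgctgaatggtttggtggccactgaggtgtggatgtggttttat
Atp5g2: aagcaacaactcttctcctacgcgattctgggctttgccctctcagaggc
Ndufb4: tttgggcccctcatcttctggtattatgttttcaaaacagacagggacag
Cox7c: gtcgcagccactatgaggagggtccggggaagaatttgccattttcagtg
Atp5g1: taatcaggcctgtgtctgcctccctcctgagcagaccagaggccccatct
Atp5g3: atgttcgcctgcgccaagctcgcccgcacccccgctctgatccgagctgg
The Atp5l window has exact copies in 9 other genes and copies within 2 mismatches in 16. The windows of Atp5g2, Cox7c and Atp5g1 have exact copies in 2 other genes each and that of Ndufb4 in 3. The Atp5g3 window has none. Pseudogenes that match coding windows within 2 mismatches number 21 for Atp5l, 6 for Atp5g1 and 5 each for the other 3. Matches within 2 mismatches are not particular to these genes. Cox5b, Uqcr11 and Ndufs3 had them for 100% of coding windows at 90.8, 66.7 and 29.6 RPKM, and Ndufa1, at 56.6 RPKM, matched 10 pseudogenes. Over 74 common members, the Spearman correlation of level with the exact coding share was -0.35.

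The c-ring of complex V shows the contrast within a gene family. Atp5g1, Atp5g2 and Atp5g3 encode the same mature c subunit, the ring that turns as protons pass. Atp5g3, with 0 of its 374 coding windows elsewhere, ran from 112 to 148 RPKM over the animals. Atp5g1 ran from 4.41 to 7.19 RPKM and Atp5g2 from 0.189 to 0.539. The sources used here do not say how reads that match several places were counted, and the part of shared sequence in these levels was not tested. A shared coding sequence did not always go with a low value. Of genes with subunits or carriers that the name rule misses, Usmg5 had 100% of its coding windows elsewhere and stood at 43.0 ± 2.96 RPKM. Ndufab1, with 99.8% of coding windows elsewhere, stood at 2.37 ± 0.280 RPKM, and Cycs, somatic cytochrome c, with 100%, at 1.27 ± 0.163. Over all windows of the transcript the shares were 8.5% for Usmg5, 12.3% for Ndufab1 and 28.5% for Cycs. Cyc1 and 2010107E04Rik, with 0%, stood at 82.9 ± 4.53 and 67.2 ± 2.87. Uqcrb, next after the 5, had 72.9% and stood at 25.0 RPKM. Ndufs5 was close to Uqcrb, with 72.5% of its coding windows elsewhere. The low value of Ndufs5 has another measured trait: its line in the table (mm9, chromosome 4) spans 24 bases, and the estimate is at most 1.38 reads in any animal.

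**Figure D2:**
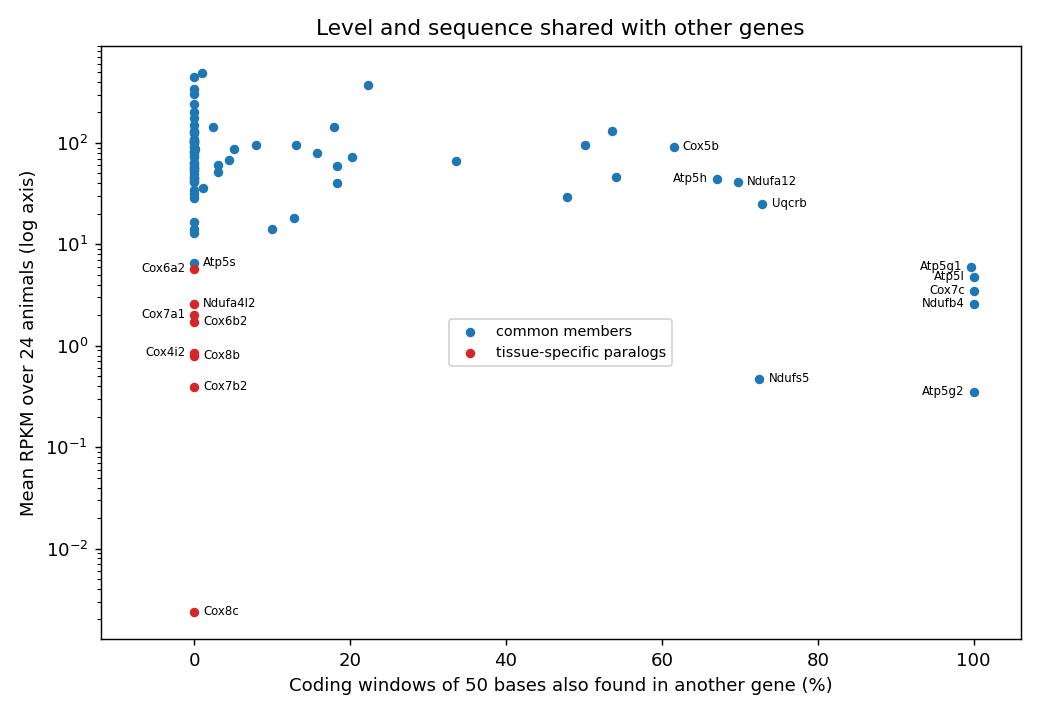
Mean RPKM over 24 animals (log axis) against the percentage of coding windows of 50 bases with an exact copy in another gene, 1 point per member with a matched transcript. The 5 members above 99% lie at 0.348 to 5.96 RPKM, and the tissue-specific paralogs lie at 0%.

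Of the tissue-specific paralogs, 4 passed 1 RPKM and all were far below their common partners. Cox6a2, the heart and muscle form, stood at 5.76 ± 2.21 RPKM (SD over 24 animals) beside 376 for Cox6a1. Ndufa4l2, a paralog induced by low oxygen, stood at 2.58 ± 0.371 beside 203 for Ndufa4, and the muscle form Cox7a1 at 2.02 ± 0.608 beside 90.7 for Cox7a2. Cox6b2, the testis form, stood at 1.70 ± 0.839 beside 242 for Cox6b1. Under the threshold, the lung-associated form Cox4i2 stood at 0.856 ± 0.159 beside 342 for Cox4i1, the muscle form Cox8b at 0.786 ± 0.952 beside 443 for Cox8a, and the testis form Cox7b2 at 0.395 ± 0.143 beside 61.0 for Cox7b. Of 10 muscle markers, 8 were under 1 RPKM, with Ckm at 0.0757, Myh1 at 0.0369 and Myl2 at 0.175. The others, Acta1 and Tnnt2, stood at 3.47 and 1.63 RPKM.

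The low paralogs Cox8b, Cox6b2 and Cox7a1 had medians of 2.29, 2.66 and 2.62 RPKM in the libraries rich in choroid plexus markers. In the other libraries their medians were 0.321, 1.36 and 1.76. Cox8b (mm9, chromosome 7, 148084841 to 148086345) ran from 0.704 to 3.28 RPKM in the 6 libraries rich in choroid plexus markers and from 0 to 0.693 in the other 18. It was the 1 member of 85 whose ranges did not overlap between these libraries, a share near the 1.14% of all 19661 rows of the table. Cox6b2 ran from 1.64 to 4.48 RPKM in the 6 libraries and from 0.715 to 1.8 in the others, where 2 animals lay above the lowest rich library. Cox7a1 ran from 2.29 to 3.28 and from 0.867 to 2.94, with 3 such animals. By group, Cox8b had its lowest, median and highest animal at 0, 0.202 and 1.04 RPKM in wild-type home cage mice and at 0.320, 0.490 and 2.07 in trained wild-type mice. In Baf53b+/- mice it had 0.235, 0.568 and 3.28 RPKM in the home cage and 0.0890, 0.380 and 3.18 after training. In each group the highest animal was a library rich in choroid plexus markers, which follows from the ranges of Cox8b given above. The part of this tissue in the levels of the 3 paralogs was not tested further. Cox6a2 did not follow it, with 2.76 to 6.07 RPKM in the 6 libraries and 2.21 to 11.9 in the other 18, nor did Cox4i2 or Ndufa4l2.

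**Figure D3:**
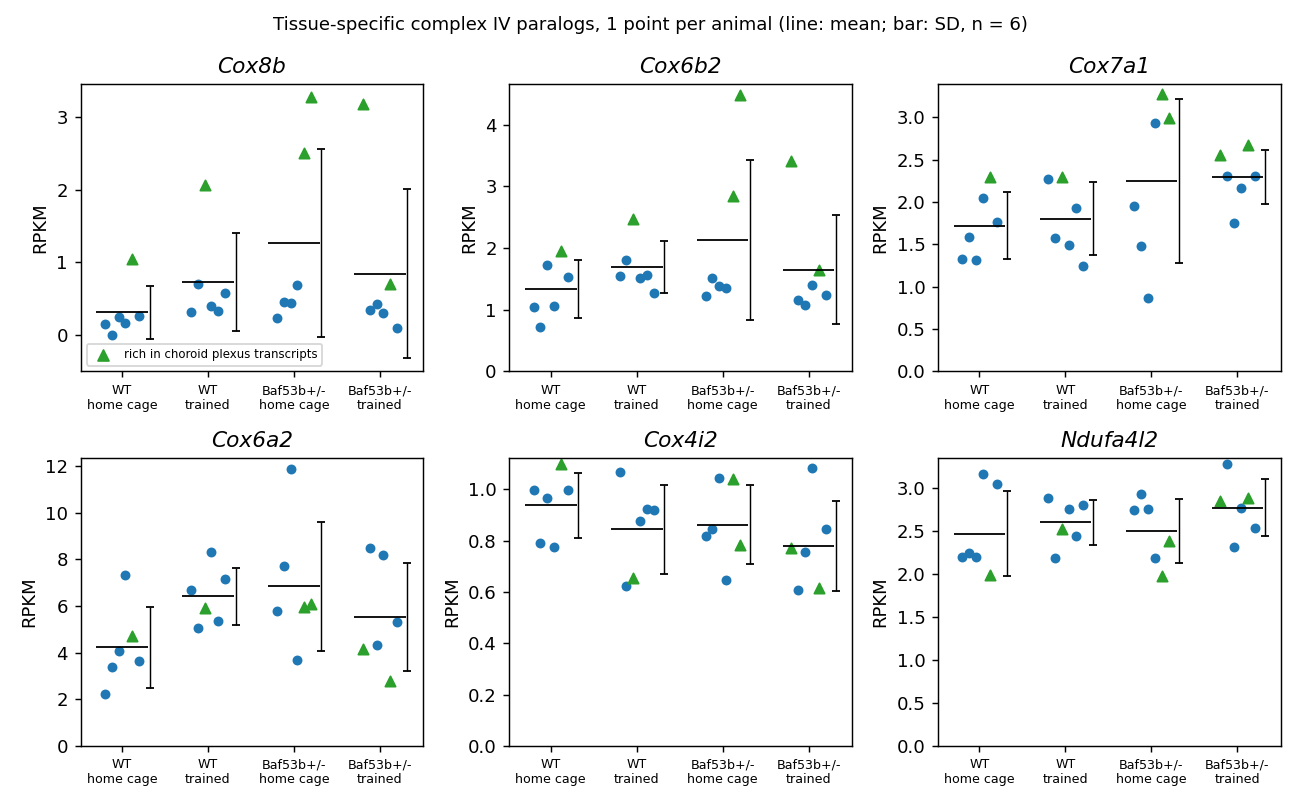
RPKM of 6 tissue-specific paralogs of complex IV in each animal, by group, with the mean (line) and SD (bar, n = 6); triangles are the 6 libraries rich in choroid plexus transcripts. The triangles are the highest points for Cox8b in each group. For Cox6a2, Cox4i2 and Ndufa4l2 their ranges over all animals overlap those of the others, though some triangles are the lowest or highest point of a group.

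Training, genotype and their interaction were asked of each tested member. No member passed in any of 7 comparisons with limma on log2(RPKM + 0.5) at a Benjamini-Hochberg adjusted p under 0.05 over all 12399 genes. For training in wild-type mice 0 of 79 members were called, beside 1.08% of all genes, and for training in Baf53b+/- mice 0 of 79 beside 1.03%. For genotype the call rate over all genes was 0.00807% at the home cage and 0.00807% after training, in each case 1 gene, which was Actl6b. For the interaction 0% of all genes were called, for training averaged over genotypes 4.17%, and for genotype averaged over conditions 0.0242%. Members at an unadjusted p under 0.05 numbered 4, 5, 2, 1, 4, 2 and 1 of 79 in these comparisons in the order given. That is 5.06, 6.33, 2.53, 1.27, 5.06, 2.53 and 1.27% of members, beside 11.1, 11, 3.52, 3.69, 2.49, 16.8 and 4.49% of all genes. No member had groups of 6 that did not overlap in training or genotype, beside 1.24% of all genes for training in wild type, 1.33% for training in Baf53b+/-, 0.0565% for genotype at the home cage and 0.226% after training. The data bounded the changes tightly. The median half-width of the 95% interval was 0.093 on the log2 scale, and the whole interval lay within 1.2-fold either way for 69 of 79 members for training in wild type, 71 for training in Baf53b+/-, 69 for genotype at the home cage and 71 after training.

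Training in wild-type mice left 54 of 79 members higher and 25 lower, with a median log2 difference of 0.021, beside 0.011 over all genes. Complex IV had 14 of 16 members higher and a median of 0.044. The split moved with single choices. With each library shifted to an equal median, 40 of 79 members and 10 of 16 of complex IV were higher and the median was 0. The share of all genes that were higher also fell with this shift, from 57% to 44.2%. Without home cage animal 2402, 42 of 79 were higher, beside 55.9% of all genes, and the median was 0.004. The smallest p was that of Uqcrh, with 126, 134 and 148 RPKM as its lowest, median and highest animal in the home cage and 136, 147 and 158 after training. The groups overlapped, and its difference was 0.11 ± 0.05 (SE; limma adjusted p = 0.388; exact permutation p = 0.0649). Cox6a2 (mm9, chromosome 7, 135349018 to 135349880) had 2.21, 3.85 and 7.33 RPKM in the home cage and 5.05, 6.31 and 8.31 after training. All 6 trained animals lay above 5 of the 6 home cage animals, and the difference was 0.605 ± 0.26 (SE; limma adjusted p = 0.395; exact permutation p = 0.026). The summed interneuron markers, which include Pvalb and Sst, had medians of 647 and 730 RPKM in these groups, and their part in Cox6a2 was not tested. Ndufb10, Atp5h of the peripheral stalk and Ndufa12 followed with differences of 0.093, 0.12 and 0.092 and adjusted p from 0.396 to 0.579.

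Training in Baf53b+/- mice left 25 members higher and 54 lower, with a median of -0.026 beside -0.001 over all genes. Of all genes, 49.3% were higher. All 4 members of complex II and 7 of 8 of complex III were lower. The split moved with single animals: the count of higher members was 14 of 79 without animal 2417 and 33 without animal 2424. Without 2424, 3 of 8 members of complex III were higher. Uqcrc2 had 103, 111 and 115 RPKM in the home cage and 104, 105 and 108 after training, a difference of -0.069 ± 0.032 (SE; limma adjusted p = 0.422). Atp5a1 had 297, 315 and 327 RPKM and then 297, 302 and 306, a difference of -0.055 ± 0.024 (SE; limma adjusted p = 0.39). In both genes the trained animals sat within the range of the home cage animals or at its lower end. Ndufa9 differed by -0.081 and Uqcrfs1 by -0.060, with adjusted p of 0.393 and 0.434. The difference between the 2 training responses was tested directly as the interaction, which had 19 members higher, 60 lower, a median of -0.040 beside -0.010 over all genes and a smallest adjusted p of 0.985 (limma). Of all genes, 44.2% were higher in the interaction. Its count of higher members was 11 of 79 without animal 2429 and 28 without animal 2422. The smallest p values of the interaction were those of Cox6a2 (-0.899 ± 0.37, SE), Uqcrh (-0.15 ± 0.07), Atp5h (-0.17 ± 0.08), Cox7b (-0.12 ± 0.06) and Ndufb7 (-0.12 ± 0.07). Averaged over genotypes, training left 34 members higher and 45 lower, with a median of -0.004. Beside Cox6a1, the smallest p values were those of Uqcrc2 (-0.049), Ndufb4 (0.15), Uqcrfs1 (-0.039) and Atp5f1 (-0.036), with adjusted p from 0.252 to 0.336.

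Genotype at the home cage had the most one-sided split, with 69 members higher in Baf53b+/- mice, 10 lower and a median of 0.026 beside 0.005 over all genes. All 8 tested members of complex III and all 16 of complex IV were higher. This comparison shares the wild-type home cage animals with training in wild type, so the splits of those comparisons are not separate. The count moved with the libraries used: without the 6 rich in choroid plexus transcripts, 51 of 79 members were higher, with 4 of 8 in complex III and 11 of 16 in complex IV. Leaving out the single Baf53b+/- animal 2415 also gave 51 of 79, and leaving out the wild-type animal 2402 gave 55. When each library was shifted to an equal median, 59 of 79 were higher. Cox6a2 had 3.68, 6.01 and 11.9 RPKM in Baf53b+/- home cage mice beside 2.21, 3.85 and 7.33 in wild-type ones. These overlap, and the difference was 0.63 ± 0.26 (SE; limma adjusted p = 0.999; exact permutation p = 0.0563). The summed interneuron markers had medians of 638 RPKM in Baf53b+/- and 647 in wild-type home cage mice. Atp5g1 had 5.60, 6.32 and 7.19 RPKM beside 5.40, 5.52 and 6.39, a difference of 0.16 ± 0.08 (SE; limma adjusted p = 0.999). Ndufv3, Ndufb10 and Atp5d differed by 0.079, 0.079 and 0.081.

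Genotype after training had 30 members higher in Baf53b+/- mice, 49 lower and a median of -0.014 beside -0.005 over all genes. Without the 4 libraries high in Cox6a1, 46 of 79 were higher and the median was 0.006, and without the wild-type animal 2436 alone 38 were higher, with a median of -0.002. Ndufa9, which had the smallest p, had 46.7, 49.6 and 53.4 RPKM in wild-type and 45.7, 47.1 and 48.9 in Baf53b+/- trained mice. The difference was -0.073 ± 0.035 (SE; limma adjusted p = 0.993), and the groups overlapped. Ndufb5, Atp5h and Sdha differed by -0.063, -0.089 and -0.044. Averaged over conditions, 48 members were higher and 31 lower, and Ndufv3 (0.063), Cox7a1 (0.27), Ndufs6 (0.085), Atp5d (0.061) and Ndufc2 (0.091) had the smallest p, each with an adjusted p of 0.999 (limma).

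**Figure D4:**
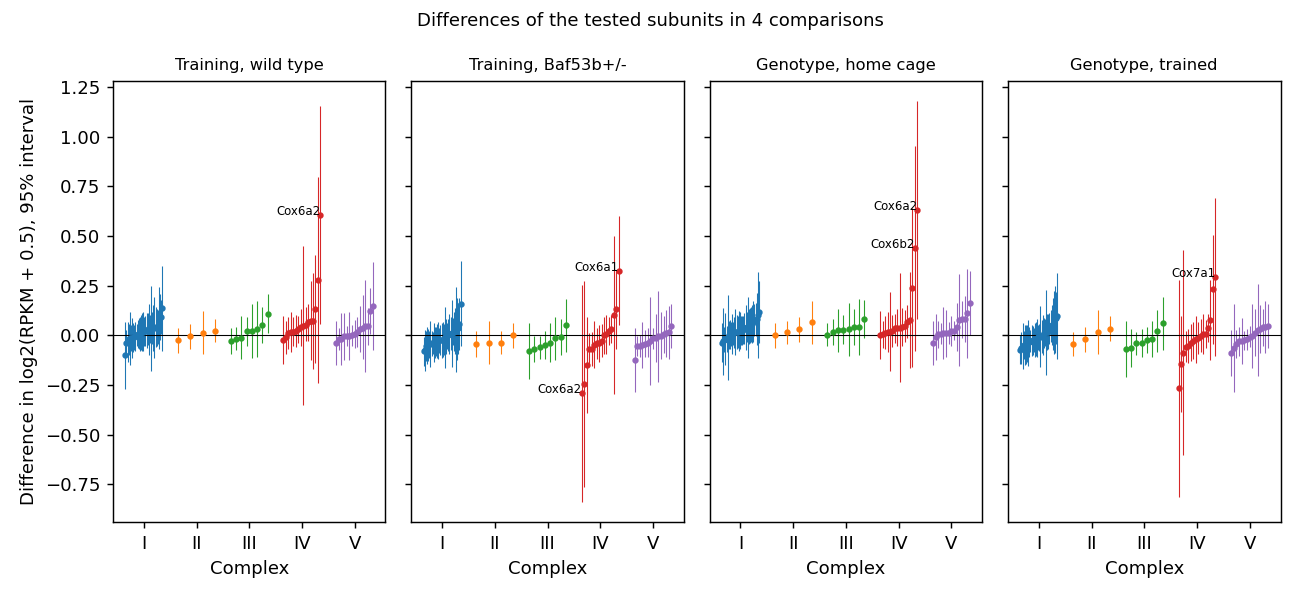
Differences in log2(RPKM + 0.5) with 95% intervals for the tested members of complexes I to V in 4 comparisons, trained minus home cage and Baf53b+/- minus wild type. Most points lie within 0.1 of 0, and Cox6a2, Cox6a1, Cox6b2 and Cox7a1 of complex IV reach farthest from 0, beside at most 0.163 (Atp5g1) in the other complexes.

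Cox6a1, the common form of a small regulatory subunit of complex IV (mm9, chromosome 5, 115795663 to 115798964), was the abundant member that varied most. It ran from 306 to 386 RPKM in 20 animals and from 522 to 561 in the other 4, with nothing in between. The high animals were 2436 (wild type, trained; 541 RPKM) and 2409, 2410 and 2435 (Baf53b+/-, trained; 522, 532 and 561 RPKM). No home cage animal was among them. Relative to the median of the 24 animals they stood at 1.53, 1.47, 1.5 and 1.58. The same 4 animals were the 4 highest for each of 8 adjacent genes in the table: Pop5, Rnf10, Coq5, Dynll1, Srsf9, Gatc, Triap1 and Cox6a1, which together span 113104 bases from 115685860 to 115798964 (mm9). Over these 8 genes their ratios to the median ran from 1.33 to 1.68, while the other 20 animals ran from 0.77 to 1.16. These 8 were picked as the genes around Cox6a1 with the same 4 animals highest, and they lie side by side. In the 19 other expressed genes shown, both sides together, the ratios of the 4 animals ran from 0.78 to 1.55. Of all 12399 tested genes, 11 had these 4 animals on top, namely the 8 neighbours and Pdgfa, Mt1 and Pim3 elsewhere. Of the 4 animals, 1 was rich in choroid plexus transcripts (2409) and 1 had Ddx3y detected (2435).

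**Figure D5:**
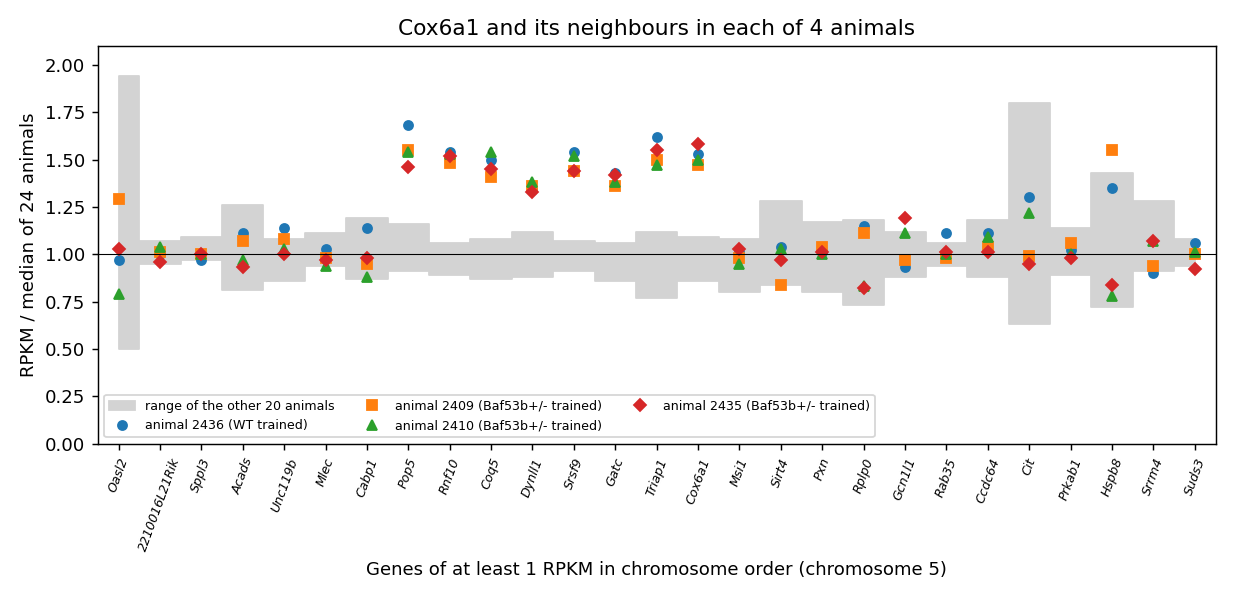
RPKM divided by the median of 24 animals for expressed genes around Cox6a1 in chromosome order, for 4 animals (markers) and the range of the other 20 (grey). From Pop5 to Cox6a1, genes picked because the 4 animals were highest, they lie at 1.33 to 1.68, above the grey range. On either side their ratios run from 0.78 to 1.55.

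The differences measured for Cox6a1 rested on these 4 animals. In Baf53b+/- mice the lowest, median and highest animals were 307, 353 and 376 RPKM in the home cage and 340, 438 and 561 after training, a difference of 0.33 ± 0.13 (SE; limma adjusted p = 0.346; exact permutation p = 0.0736). Training averaged over genotypes gave 0.23 ± 0.09 (adjusted p = 0.195, limma) and genotype after training 0.23 (adjusted p = 0.993). Without the 4 animals, which were chosen by their Cox6a1 level, these values were 0.015, 0.019 and 0.031. Of the 8 neighbours, 2 passed for training averaged over genotypes, Coq5 (0.28 ± 0.07, SE; limma adjusted p = 0.0307) and the dynein light chain gene Dynll1 (0.21 ± 0.06, SE; limma adjusted p = 0.039). Without the 4 animals they stood at 0.11 (adjusted p = 0.159) and 0.077 (adjusted p = 0.351), in a fit with fewer animals in which 239 rather than 517 of all genes passed.

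Members varied together from animal to animal. Within groups, the mean correlation over all pairs of the 79 tested members was 0.306, beside 0.017 over pairs of all tested genes. It was 0.314 in complex I, 0.254 in complex II, 0.436 in complex III, 0.285 in complex IV and 0.273 in complex V. These are correlations over 24 animals that share a library each, given as a description. Among the members, the shared movement was larger in those with short coding sequences. Short and long genes outside the members were not compared, so this may not be particular to them. The 26 members with the shortest, 156 to 324 bases, had a mean pairwise correlation of 0.445 and a median coefficient of variation of 7.40%. The 26 with the longest, 528 to 2181 bases, had 0.281 and 4.01%. Taken as the median deviation from the group mean, the short members ran from -0.13 in animal 2417 to 0.13 in animal 2429 on the log2 scale, and the long members from -0.085 in animal 2417 to 0.079 in animal 2415. In libraries rich in choroid plexus transcripts the short members lay between -0.039 and 0.13, and in the others between -0.13 and 0.090. RNA quality was not tested, since the labels give no measure of it.

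Few other genes of the pathway passed. Over 11 lists of assembly factors, electron carriers, regulators, citric acid cycle enzymes, carriers and glycolytic enzymes, 118 list entries were tested. With limma, 0 passed in 6 of the 7 comparisons. An unadjusted p under 0.05 was found for 9 of 118 for training in wild type, beside 11.1% of all genes. For training in Baf53b+/- mice it was 13 of 118 beside 11%. For genotype it was 11 of 118 beside 3.52% at the home cage and 4 of 118 beside 3.69% after training. Averaged over conditions, genotype had 9 of 118 beside 4.49%, and the interaction had 5 of 118 beside 2.49%. For training averaged over genotypes 2 rose and 1 fell, beside 4.17% of all genes. Those that rose were Coq5, a methyltransferase of ubiquinone synthesis that is in the Cox6a1 neighbourhood above, and Cox19, a complex IV assembly factor (0.10 ± 0.03, SE; limma adjusted p = 0.0478). Cox19 lost its call when any of 18 of the 24 animals was left out. Dlat, the E2 subunit of pyruvate dehydrogenase, fell by 0.087 ± 0.021 on the log2 scale (SE; limma adjusted p = 0.0176), a call that held with each of the 24 animals left out in turn but not without the 4 animals high in Cox6a1 (adjusted p = 0.138). Of the 16 citric acid cycle and pyruvate dehydrogenase genes, 1 was higher and 15 were lower after training, with a median of -0.029. Of 16 glycolytic genes 2 were higher, with a median of -0.031, and of 16 complex IV assembly factors 6 were higher, with a median of -0.003. The median over all genes was 0.004.

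The promoters of some members hold motifs of known regulators of mitochondrial genes. NRF1, nuclear respiratory factor 1, binds a GC-rich palindrome, and ETS factors, YY1 and estrogen-related receptors have also been tied to respiratory chain promoters. RefSeq promoters (GRCm38.p6, 250 bases before to 50 after the start) were matched for 69 members and searched on both strands. A gene with several listed promoters counts once if any of them holds the motif. The NRF1 motif, GCGCA followed by any base and GCGC, was in 24.6% of them, beside 5.19% of all 27025 genes with promoters of the same length. The ETS motif CCGGAAG was in 23.2% beside 9.93%, the YY1 motif AANATGGCG in 15.9% beside 2.76%, and the estrogen-related receptor motif TCAAGGTCA in 2.90% beside 0.47%. The TATA box TATAAA was in 10.1% beside 15.7%. A promoter with several of these motifs counts under each, and a match is a description of letters. The stretch around the NRF1 motif, in capitals, is shown for 4 of the members that hold it.
Cox6a1 (chr5:115349096-115349135, minus strand): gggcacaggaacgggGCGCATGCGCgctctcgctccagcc
Atp5g2 (chr15:102671065-102671104, minus strand): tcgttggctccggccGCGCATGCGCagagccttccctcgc
Sdha (chr13:74350314-74350353, minus strand): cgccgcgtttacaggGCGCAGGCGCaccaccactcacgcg
Sdhd (chr9:50603904-50603943, minus strand): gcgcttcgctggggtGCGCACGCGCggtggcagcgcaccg
The motif begins 162 bases before the start in Cox6a1, 42 in Atp5g2, 98 in Sdha and 79 in Sdhd. The levels of these 4 genes ran from 0.348 RPKM for Atp5g2 to 376 for Cox6a1. The tissue-specific forms Cox8b and Cox7b2 held a TATA box, as did 5 other members, while the tissue-specific forms Cox6b2 and Cox7a1 did not. Cox8b, Cox7b2, Cox6b2 and Cox7a1 all lacked the NRF1 motif. No promoter was matched for Cox4i2, Cox6a2, Cox8c and Ndufa4l2.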

How the data were processed

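RPKM values, 1 column for each of the 24 animals, were deposited by the authors in a single table. Per the labels' protocols, libraries were made with TruSeq RNA v2, which does not keep strand, and sequenced for 50 single-end cycles in 4 pools (the pool of each animal is not stated). The sources used here do not state the annotation, the counter or the rule for reads with several matches. The submitters' processing notes name CASAVA 1.8.2, Bowtie 0.12.8 and mm9. Values were used as deposited. The log2 of RPKM plus 0.5 was fitted with limma 3.58.1 in R 4.3.3 (4 groups in 1 model, trend and robust settings) for 12399 genes (mean RPKM of 1 or more), adjusted by Benjamini-Hochberg. Two-sided exact permutation tests over 924 splits can give no p below 0.00216. The fit was tested on simulated data. Depth was taken as the read total at which 46.7% to 55.3% of low values fell within 0.05 of whole reads; other totals gave a median of at most 8.66%. Windows were matched with bwa 0.7.19 with up to 2 mismatches. A library was called rich in choroid plexus transcripts where the mean log2 marker level was over 1 above the median. The members and lists were chosen with earlier results of these data known. Named are the 5 members with the smallest p in each comparison, the highest and lowest of each complex, tissue-specific and low members, c-ring and X-linked genes, and the largest and smallest spreads; genes around Cox6a1 were chosen after their values were seen. Alternatives were other pseudocounts, filters, scalings, settings and covariates, and fits without single or selected libraries. Protein sequences were not used here, and single values of 2 genes are not reported here.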

Additional observations from a re-analysis of the deposited data

Results flagged for a closer look

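Among 148 sets of 6 animals (37 named members in 4 groups), 15 held an animal set apart from the other 5 by a gap over Dixon's 95% critical value for 6 samples. Chance alone flags about 1 in 20 where values are normally distributed. That rate is no measure here, since some named members were picked for their wide spread and some lie near 0. Of the 15, 8 were in animals rich in choroid plexus transcripts, which are 6 of the 24. These 8 include values of Cox8b and Cox6b2, whose higher medians in those libraries are given above. Cox8b stood at 1.04 RPKM in wild-type home cage animal 2425 (others 0 to 0.254), at 2.07 in trained wild-type animal 2412 (others 0.320 to 0.693) and at 3.18 in trained Baf53b+/- animal 2409 (others 0.0890 to 0.704). Cox6b2 stood at 3.41 RPKM in trained Baf53b+/- animal 2409 and Cox7c at 4.72 in wild-type home cage animal 2425. In trained Baf53b+/- animal 2429, Ndufs6 stood at 48.1 RPKM and Uqcrc2 at 108, and Atp5f1 stood at 101 in Baf53b+/- home cage animal 2422. Cox6a1, at 541 RPKM in trained wild-type animal 2436, lay above the others at 312 to 377, and the same animal was highest for Ndufb11 at 75.3. The remaining values were 193 RPKM for Atp5d in trained Baf53b+/- animal 2435, 44.0 for Uqcrfs1 in trained wild-type animal 2407 and 4.41 for Atp5g1 in trained wild-type animal 2433, the last a low value. Cox8c was at 0.0565 RPKM in wild-type home cage animal 2402 and Ndufs5 at 1.68 in trained wild-type animal 2433, each with the other 5 animals of the group at 0.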

How the results depend on the processing

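Members called stayed at 0 in all 7 comparisons under up to 36 settings, 24 of which left out 1 animal; named members kept their sign, and their lowest adjusted p under any setting was 0.113 (Uqcrc2, training averaged over genotypes). The median difference of the members changed sign for genotype after training (-0.014, up to 0.006), genotype averaged over conditions (0.008, down to -0.009) and training averaged over genotypes (-0.004, up to 0.005). Equal medians shifted all genes by at most 0.0204. Without the 4 animals high in Cox6a1, a setting added after the data were seen, its training difference in Baf53b+/- mice fell from 0.33 to 0.015. Of the calls outside the members, Coq5 was lost without any of animals 2430, 2401, 2415, 2424, 2409, 2410 or 2435, Dynll1 without any of 14, Cox19 without any of 18 and under 8 of 11 other settings, and Dlat only without the 4 animals (adjusted p = 0.138). No paired analysis was possible because the animal numbers in the labels are not shared between groups. Ndufb4 and Cox7a1 have no value under the 5 RPKM filter, and fits of only the groups compared were run for counts of calls.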

Other observations

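Genes that build or supply the complexes were expressed well below the subunits. Assembly factors had median levels of 9.52 RPKM for complex I (13 genes, from 1.04 for Nubpl to 21.0 for Ecsit), 8.74 for complex II (4 genes), 14 for complex III (4 genes) and 7.64 for complex IV (16 genes, from 1.69 for Sco1 to 51.4 for Ccdc56), beside 54.7, 61.2, 93.9 and 53.5 for the members of these complexes. An exception was Atpif1, the inhibitor of ATP hydrolysis by complex V, at 163 ± 11.1 RPKM (SD over 24 animals). Enzymes that feed the chain ran closer to the subunits. The 16 citric acid cycle and pyruvate dehydrogenase genes had a median of 58.0 RPKM, and the 16 glycolytic genes had a median of 108, with Aldoa highest at 735. Regulators of mitochondrial gene expression had a median of 6.28 RPKM, from 2.45 for Ppargc1b to 19.5 for Yy1. Cyct, the testis cytochrome c, stood at 0.0440 RPKM.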
